A study of Homo sapiens with 14 samples.

Results

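Chromosome 19 carries the densest collection of zinc finger genes in the human genome. The genes described here were the protein-coding genes of chromosome 19 whose symbol is ZNF followed by digits and at most 1 letter, in GENCODE release 44 for GRCh38. This gave 246 genes of the 58440 genes counted, between positions 2819868 and 58481230 of the chromosome, and they were compared with the 262 ZNF genes of other chromosomes and with 1220 other protein-coding genes of chromosome 19. The measurements came from 14 RNA-seq libraries of cultured cells. HEK-293T is an adherent human line derived from embryonic kidney, which carries the SV40 large T antigen and was obtained from ATCC and grown in DMEM. Jurkat cells derive from a human T cell leukemia and were grown in RPMI. Unedited and otherwise untreated cells of both lines were harvested, mixed as suspensions and pelleted. There were 2 libraries each of HEK cells alone, of Jurkat cells alone, and of mixtures with 80%, 60%, 50%, 40% and 20% HEK cells, the rest being Jurkat. The libraries of a condition are described as technical replicates and nothing says that they came from separate cultures, so that every p-value below measures the spread between these libraries, which may be technical.

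Most of these genes arose by tandem duplication, and most encode proteins with a KRAB domain followed by an array of C2H2 zinc fingers. The fingers bind DNA, often in transposable elements. The KRAB domain recruits TRIM28 (KAP1), which brings the methyltransferase SETDB1 and HP1 proteins and so places repressive H3K9me3 on the target. Because the copies are alike in sequence, a short read from a finger array can fit several of them.

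Libraries held between 4468822 and 28303668 gene counts, the pure Jurkat libraries being the shallowest, with 4468822 and 6204316. ERCC spike-ins, synthetic RNAs added after mRNA capture, made up 0.674% to 7.65% of all counts. In the pure lines, all 10 T cell markers were higher in Jurkat and all 9 tested markers of HEK-type cells were higher in HEK, by edgeR's quasi-likelihood test (Benjamini-Hochberg adjusted p under 0.05). The HEK marker CTNNA2 was at 0 in the pure libraries. Of 10 markers of other cell types, 6 were at or under 3 counts in every pure library and the highest reached 10.9 CPM (counts-per-million). In the file names, the pure HEK libraries belong to a group of 6 libraries and the pure Jurkat libraries to a group of 8. Line and file-name group can therefore not be told apart in the pure libraries. Levels are given as CPM over genes without spike-ins. The percentages of cells were set by the design, and the paper reports from the spike-ins that a HEK cell holds more mRNA than a Jurkat cell. A level in a mixture therefore reflects the RNA of each line and not the number of cells alone.

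The ZNF genes of chromosome 19 took a larger share of gene counts in Jurkat than in HEK. In libraries of HEK cells alone the share was 0.166% and 0.157%, and in those of Jurkat cells alone it was 0.285% and 0.289%, with 95% Wilson intervals no wider than from 0.280% to 0.290% in any of them (counting error only). The Jurkat libraries were both above the HEK libraries, and the ratio of the means was 1.78. An exact permutation test over 2 against 2 libraries cannot go under 0.33. The mixtures stayed close to HEK: 0.165% and 0.167% with 80% HEK cells, 0.173% and 0.160% with 60%, 0.151% and 0.156% with 50%, 0.181% and 0.187% with 40%, and 0.186% and 0.195% with 20%. The 262 ZNF genes of other chromosomes took 0.667% and 0.664% in HEK and 0.704% and 0.688% in Jurkat. The direction depended on the scale, because the libraries held 147 and 97.3 gene counts per spike-in count in HEK and only 12.1 and 12.3 in Jurkat, so that per spike-in count the Jurkat over HEK ratio of the ZNF genes was 0.176.

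The genes differed in how surely reads could be assigned to them. RSEM splits a read that fits several genes, which leaves fractional counts, and 146 of the 246 genes had mostly fractional counts over the libraries while 29 had whole counts in every library. The genes with mostly fractional counts took 0.115% and 0.112% of gene counts in HEK and 0.223% and 0.227% in Jurkat. Those with mostly whole counts took 0.0512% and 0.0458% in HEK and 0.0616% and 0.0625% in Jurkat, a ratio of 1.28. Further, 185 of the genes overlap another annotated gene, 139 of them on the opposite strand. The libraries were strand-specific, but whether counting used it is not given in the sources used here. The part of divided and overlapping reads in the result was not tested.

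Across all genes, edgeR tested 15794 between the pure lines, among them 190 of the 246 ZNF genes. The other 56 were filtered out for low counts, and 19 had at most 3 counts in every pure library. Relative to all gene counts, 79 of the 190 were higher in Jurkat, or 41.6%, and 17 were higher in HEK, or 8.95%, while 94 did not pass the adjusted threshold of 0.05. Over all genes tested, 19% were higher in Jurkat and 24.2% were higher in HEK. The median log2 difference (HEK over Jurkat) was -0.83 for the ZNF genes and 0.07 for all genes. With spike-in totals as library sizes, the median of all genes shifted to 3.61 and that of the ZNF genes to 2.68. The counts turned to 168 of the 190 higher in HEK and 6 higher in Jurkat, beside 92.5% and 3.22% of all genes tested. The median of the ZNF genes lay below that of all genes on both scales. New library sizes shift nearly all genes alike, so the order of these medians on the second scale is not a separate result. The 6 genes that were higher in Jurkat on both scales were ZNF558, ZNF491, ZNF439, ZNF763, ZNF43 and ZNF671.

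For the ZNF genes of other chromosomes, 48 of 222 tested were higher in Jurkat (21.6%) and 43 in HEK, with a median of -0.24. For the other protein-coding genes of chromosome 19, 110 of 702 were higher in Jurkat and 145 in HEK, with a median of 0.13. Among the ZNF genes with mostly fractional counts, 61 of 120 were higher in Jurkat (50.8%) and 11 in HEK. Among those with mostly whole counts, 18 of 70 were higher in Jurkat (25.7%) and 6 in HEK, with a median of -0.44. Over all genes, fractional and whole counts both gave 19% higher in Jurkat. In 102 of the tested ZNF genes both Jurkat libraries lay above both HEK libraries, beside 27.6% of all genes tested, and in 42 both lay below, beside 47.2%. The number of calls fell most when a HEK library was left out, over all genes tested as well as for the ZNF genes. Each such fit leaves 1 library of a line, which is assumed to vary like the pair of the other line. The median log2 difference of the ZNF genes was -0.89 without HEK library 1 and -0.86 without HEK library 2, beside 0.04 and 0.05 for all genes. Without Jurkat library 1 or 2 it was -0.68 or -0.86, beside 0.15 or 0.17 for all genes.

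**Figure D1:**
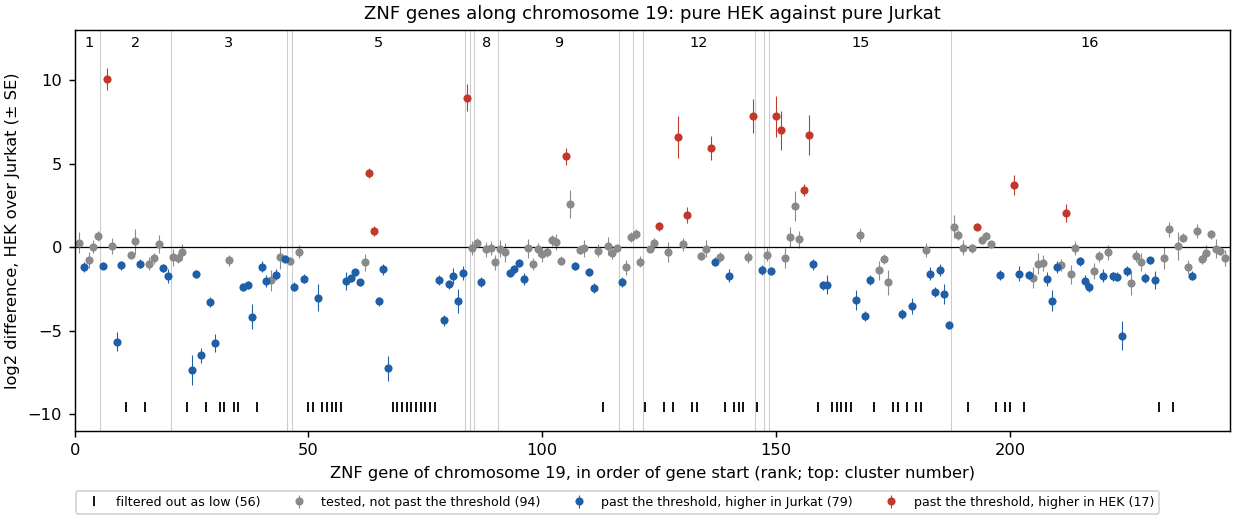
Each point is a ZNF gene in order of its start along chromosome 19, with its log2 difference between pure HEK and pure Jurkat libraries (2 each) on the vertical axis and bars of 1 standard error from edgeR. Relative to all gene counts, 79 genes lay below 0 past the threshold and 17 above it. With spike-in totals 168 were higher in HEK, beside 92.5% of all genes tested. Values of genes at 0 in a line are fitted and no bound. Grey lines separate clusters, numbered at the top where they hold 5 genes or more, and ticks at the bottom mark the 56 genes filtered out as low.

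The directions differed in size. The 17 genes higher in HEK had a median fitted log2 difference of 5.46, but 6 of them were at 0 in both Jurkat libraries, and with these set to the bound that 3 counts allow the median was 2.36 and 11 of the 17 differed more than 4-fold. The 79 higher in Jurkat had a median of -1.89, with or without the bound for the 1 gene at 0 in HEK, and 34 of them differed more than 4-fold. The median gene stood at 2.69 CPM in HEK and 3.67 in Jurkat, and 18 genes averaged 20 CPM or more in HEK against 42 in Jurkat. ZNF714, a KRAB zinc finger gene, was the most abundant by CPM in both lines, at 96.9 and 100.3 CPM in HEK and 250.5 and 228.8 in Jurkat. Its counts were fractional in all 14 libraries. Its log2 difference was -1.51 ± 0.20 (SE), adjusted p = 0.00428, and turned to 2.04 with spike-in totals.

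Levels of different genes were also ranked as transcripts-per-million (TPM), which divides by length, rescaled over genes without spike-ins. The cDNA was primed with oligo-dT that carried the barcode, so reads need not grow with length. Dividing by length may then bias the order of genes, which was not tested. On the TPM scale the highest in HEK were ZNF580 (mean TPM 36.96), ZNF738 (29.2) and ZNF649 (28.5). The highest in Jurkat were ZNF714 (55.9), ZNF724 (53.99) and ZNF43 (38.1). ZNF580 encodes a short zinc finger protein without a KRAB domain. Its CPM was 36.9 and 38.8 in HEK and 14.8 and 12.8 in Jurkat, which do not overlap. The log2 difference was 1.23 ± 0.21 (adjusted p = 0.00948), and without HEK library 2 the adjusted p was 0.0617. ZNF724 stood at 17.4 and 27.5 CPM in HEK and 82.0 and 69.4 in Jurkat, a log2 difference of -1.97 ± 0.30 (adjusted p = 0.00646) that turned to 1.51 with spike-in totals.

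Among the genes expressed in both lines, ZNF57, ZNF30 and ZNF507 differed least. ZNF507 stood at 77.2 and 33.3 CPM in HEK and 48.1 and 49.2 in Jurkat, with the Jurkat libraries inside the HEK range. Its log2 difference was -0.05 ± 0.42, which leaves room for differences in either direction. With spike-in totals these 3 genes were higher in HEK, by 3.59 to 3.67 on the log2 scale, near the shift of all genes.

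**Figure D2:**
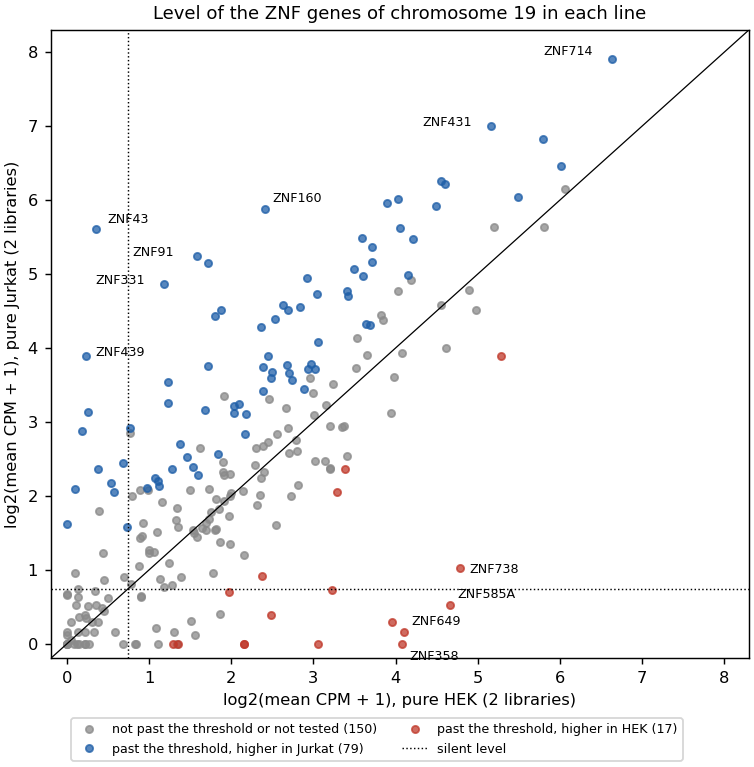
Each point is a ZNF gene of chromosome 19, placed by log2(mean CPM + 1) in the pure HEK libraries (horizontal) and the pure Jurkat libraries (vertical), 2 libraries each. The solid line marks equal CPM and the dotted lines mark the level of 0.671 CPM used to call a gene silent. The genes higher in Jurkat (blue, 79) are spread above the line at all levels, while most of the 17 higher in HEK (red) lie near 0 in Jurkat, on the scale of all gene counts. With spike-in totals 168 genes were higher in HEK, beside 92.5% of all genes tested.

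A gene was called silent in a line when both pure libraries were at or under 0.671 CPM, the value of 3 counts in the shallowest pure library, and expressed when both reached 2 CPM. By this rule 107 genes were expressed in both lines, 26 were silent in both, and 95 were intermediate in at least 1 line. Another 10 were expressed in HEK and silent in Jurkat, or 4.07% of the ZNF genes beside 4.58% of all protein-coding genes. A further 8 were silent in HEK and expressed in Jurkat, or 3.25% beside 1.64%. The 26 silent in both made up 10.6%, beside 29.4% of protein-coding genes. The level of 0.671 CPM is 6.35 and 10.2 counts in the deeper HEK libraries, so that silent means low there and not undetected. Of the 45 genes silent in HEK, 20 had more than 3 counts in a HEK library, up to 9.17, and of the 49 silent in Jurkat, 7 had more than 3 in a Jurkat library, up to 4.07.

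The 10 genes expressed in HEK and silent in Jurkat were ZNF358, ZNF536, ZNF585A, ZNF585B, ZNF234, ZNF296, ZNF577, ZNF649, ZNF432 and ZNF470. Among them are genes of KRAB proteins such as ZNF585A, ZNF649 and ZNF432, and ZNF536, which has no KRAB domain and is known as a repressor in neuronal differentiation. ZNF358 stood at 16.1 and 15.7 CPM in HEK and at 0 in both Jurkat libraries. This is at least 23.7-fold higher, taking 3 counts in the shallowest Jurkat library as the floor. ZNF536, at positions 30224891 to 30713586 with no other ZNF gene within 1 Mb, stood at 7.08 and 7.56 CPM in HEK and at 0 in both Jurkat libraries, at least 10.9-fold higher. ZNF296 was at 3.81 and 3.10 CPM in HEK and at 0 in both Jurkat libraries, at least 5.15-fold higher. It had whole counts in every library. The adjusted p of ZNF296 was 0.00746, and 0.0633 or 0.0511 without HEK library 1 or 2.

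ZNF649 and ZNF577 overlap on the minus strand, so that reads in the overlap cannot be assigned with certainty. ZNF649 was at 24.6 and 7.87 CPM in HEK and at 0.224 and 0 in Jurkat. The HEK libraries differed 3-fold from each other, and both were far above Jurkat. The ratio was 152.7 with a 95% counting interval of 27.2 to 6047, since Jurkat held few counts. Without Jurkat library 2 its adjusted p was 0.053 instead of 0.00882. ZNF577 stood at 4.31 and 2.6 CPM in HEK and 0 in both Jurkat libraries, at least 5.14-fold higher, and its adjusted p went from 0.0114 to 0.0787 without HEK library 1. ZNF234 stood at 16.3 and 12.7 CPM in HEK and at 0.452 and 0 in Jurkat, a ratio of 75.2 with an interval of 20.7 to 623.8. ZNF841 (1.59 and 1.52 CPM in HEK) and ZNF155 (1.59 and 1.29) were at 0 in both Jurkat libraries, at least 2.31-fold and 2.15-fold higher, and neither passed the threshold without Jurkat library 2 (adjusted p of 0.0558 and 0.0645), nor did ZNF155 without Jurkat library 1 (0.0522).

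ZNF585A and ZNF585B are closely related neighbors. ZNF585A stood at 19.2 and 29.7 CPM in HEK and at 0.224 and 0.645 in Jurkat, a log2 difference of 5.46 ± 0.51 (adjusted p = 0.0017). ZNF585B stood at 2.42 and 2.87 CPM in HEK and at 0 and 0.645 in Jurkat. Its libraries did not overlap between lines either, but its difference of 2.601 ± 0.825 did not pass (adjusted p = 0.0539). Both genes had fractional counts in 12 of the 14 libraries. ZNF738 was nearly as confined, at 28.5 and 24.9 CPM in HEK and 0.958 and 1.13 in Jurkat, with a log2 difference of 4.46 ± 0.30 (adjusted p = 0.000798).

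The 8 genes silent in HEK and expressed in Jurkat were ZNF558, ZNF491, ZNF439, ZNF763, ZNF563, ZNF43, ZNF547 and ZNF671. ZNF43, a KRAB zinc finger gene of the large pericentromeric cluster, stood highest of them in Jurkat. It was at 0 and 0.561 CPM in HEK and at 56.2 and 39.8 in Jurkat, a log2 difference of -7.26 ± 0.76 (adjusted p = 0.00227). It was thus low in HEK, with 8.51 counts in library 2, and among the more abundant ZNF genes in Jurkat. ZNF439 stood at 0.213 and 0.137 CPM in HEK and 16.9 and 10.9 in Jurkat, a log2 difference of -6.49 ± 0.47 (adjusted p = 0.000913). ZNF558 stood at 0.317 and 0.066 CPM in HEK and 8.18 and 7.45 in Jurkat, a log2 difference of -5.66 ± 0.57 (adjusted p = 0.00211). ZNF763 was at 0.208 and 0.066 CPM in HEK against 6.43 and 6.21 in Jurkat, a ratio of 52.3 with an interval of 17.1 to 259.7. The groups of these genes do not overlap, and each HEK value rests on few counts. ZNF491 was at 0 in both HEK libraries and at 2.01 and 2.10 CPM in Jurkat, at least 6.49-fold higher, with adjusted p values of 0.00609 and, without HEK library 2, 0.0568. ZNF671 stood at 0 and 0.132 CPM in HEK and at 4.48 and 2.10 in Jurkat, a ratio of 38.1 with an interval of 9.73 to 327.2. Its adjusted p was 0.00803, and 0.0502 or 0.0521 without HEK library 1 or Jurkat library 1.

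Another pair of genes with large differences, ZNF331 and ZNF91, was low in HEK without being silent. ZNF331, an imprinted gene, stood at 1.16 and 1.39 CPM in HEK and at 28.0 and 28.4 in Jurkat, a log2 difference of -4.66 ± 0.26 (adjusted p = 0.000643). It had whole counts in all libraries. ZNF91, whose protein is known to repress SVA retrotransposons, stood at 1.59 and 2.41 CPM in HEK and at 33.1 and 40.4 in Jurkat, a log2 difference of -4.38 ± 0.32 (adjusted p = 0.000926). With spike-in totals their differences were -1.19 and -0.93, and neither passed (adjusted p of 0.0625 and 0.124).

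The promoters of ZNF43 and ZNF91, which were high in Jurkat, and of the adjacent ZNF585A and ZNF585B, which were silent there, are shown because the members of each pair are alike in sequence and stood on the same side. They are RefSeq sequences of GRCh38.p14, from 250 bases before to 50 after the start that RefSeq gives the gene, 5′ to 3′ on the gene's strand, with each CG in capitals. For ZNF43 and ZNF585B this start lies 15.9 and 7.62 kb downstream of the GENCODE start used for gene positions, and for ZNF91 and ZNF585A it lies within 0.046 kb of it.
ZNF43 (chr19:21836133-21836432, minus strand): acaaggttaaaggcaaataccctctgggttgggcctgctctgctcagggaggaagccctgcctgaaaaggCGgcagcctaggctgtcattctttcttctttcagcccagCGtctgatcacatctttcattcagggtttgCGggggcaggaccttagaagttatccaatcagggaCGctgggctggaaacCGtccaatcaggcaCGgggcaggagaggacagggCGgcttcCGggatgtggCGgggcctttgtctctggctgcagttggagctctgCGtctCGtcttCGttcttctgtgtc
ZNF91 (chr19:23395422-23395721, minus strand): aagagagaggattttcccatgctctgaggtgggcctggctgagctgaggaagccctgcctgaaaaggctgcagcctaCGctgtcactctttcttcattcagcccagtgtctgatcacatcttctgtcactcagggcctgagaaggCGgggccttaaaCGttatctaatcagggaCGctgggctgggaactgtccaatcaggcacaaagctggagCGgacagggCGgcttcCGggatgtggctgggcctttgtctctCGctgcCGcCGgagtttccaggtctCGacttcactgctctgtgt
ZNF585A (chr19:37172646-37172945, minus strand): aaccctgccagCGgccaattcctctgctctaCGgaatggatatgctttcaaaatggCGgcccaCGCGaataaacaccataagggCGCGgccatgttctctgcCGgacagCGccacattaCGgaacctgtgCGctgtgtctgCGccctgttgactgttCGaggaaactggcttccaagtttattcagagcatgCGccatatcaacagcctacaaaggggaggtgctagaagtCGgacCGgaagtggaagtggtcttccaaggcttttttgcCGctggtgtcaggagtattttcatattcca
ZNF585B (chr19:37210487-37210786, minus strand): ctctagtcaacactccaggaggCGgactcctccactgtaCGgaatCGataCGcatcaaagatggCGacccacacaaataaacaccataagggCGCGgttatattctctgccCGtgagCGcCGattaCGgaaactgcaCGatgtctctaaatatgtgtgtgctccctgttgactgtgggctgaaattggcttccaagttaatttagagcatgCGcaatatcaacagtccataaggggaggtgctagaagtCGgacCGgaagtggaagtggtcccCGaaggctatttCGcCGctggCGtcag
In a global alignment, the windows of ZNF43 and ZNF91 were identical at 243 of 292 aligned bases (83.2%) and those of ZNF585A and ZNF585B at 230 of 280 (82.1%). Windows of the different pairs, ZNF43 and ZNF585A, matched at 55.6%. The windows hold 12 and 11 CG in the first pair and 17 and 19 in the second.

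RefSeq windows of this kind were matched for 216 of the 246 genes, in 182 with a start within 1 kb of the GENCODE start. They held a median of 20 CG, beside 22 for all protein-coding genes and 24 for the ZNF genes of other chromosomes. The median was 21 for genes expressed in HEK and silent in Jurkat (9 windows), 12 for genes silent in HEK and expressed in Jurkat (7 windows), 17 for genes silent in both (19 windows) and 21 for genes expressed in both (100 windows). Motifs were searched on both strands. CCGGAAG, a core of ETS factor sites, occurred in 45.4% of the windows, beside 10.7% of all 27305 windows, 14.4% of those of protein-coding genes and 34.3% of those of other ZNF genes. GGGCGG, the GC box, occurred in 67.6%, beside 44.6% of all windows, 59.3% of those of protein-coding genes and 59.6% of those of other ZNF genes. TATAAA occurred in 1.85%, beside 12.0%, 9.61% and 4.23% in the same order. CCGGAAG and GGGCGG each include a CG, so these counts overlap with CG content, and the match of letters is a description of the window only. Among genes higher in Jurkat CCGGAAG occurred in 52.1% of 73 windows, among those higher in HEK in 57.1% of 14 and among those tested and not called in 39.5% of 86.

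**Figure D3:**
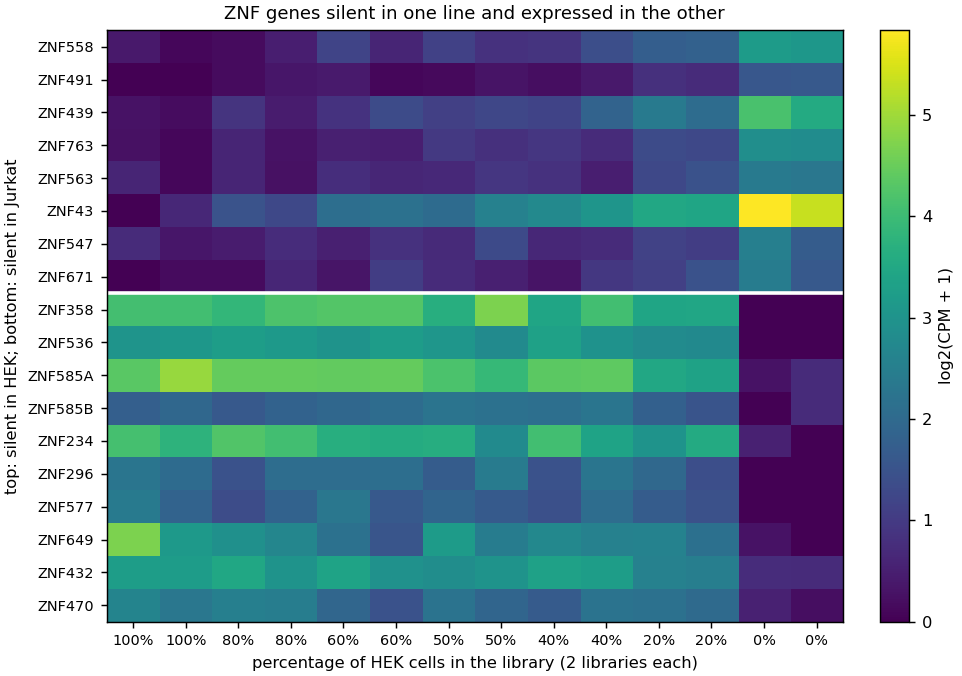
Rows are the 8 ZNF genes silent in HEK and expressed in Jurkat (top) and the 10 silent in Jurkat and expressed in HEK (bottom), columns are the 14 libraries by percentage of HEK cells, and color is log2(CPM + 1). ZNF43 is brightest in the pure Jurkat libraries and falls already with 20% HEK cells, while ZNF358, ZNF536 and ZNF585A stay bright down to 20% HEK cells.

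Neighboring genes were examined for silence in a single line. A block was a run of at least 3 consecutive ZNF genes, all silent in one line, of which at least 2 were expressed in the other. There were 45 genes silent in HEK, in 26 runs of up to 6 genes, and 49 silent in Jurkat, in 32 runs of up to 5. None of these runs met the rule, so there were 0 blocks silent in HEK and 0 silent in Jurkat. Runs of 2 sufficed for ZNF585A with ZNF585B and ZNF577 with ZNF649, both silent in Jurkat. With 1 CPM as the expressed level, ZNF667, ZNF471 and ZNF470 formed a block silent in Jurkat. There ZNF470 stood at 5.21 and 4.01 CPM in HEK and ZNF471 at 1.80 and 1.12, but ZNF667 was silent in both lines. Requiring only 1 gene expressed in the other line added ZNF763 with ZNF433 and ZNF878, and ZNF43 followed by ZNF208, ZNF257, ZNF676, ZNF729 and ZNF98, both silent in HEK. In the latter run the 5 genes after ZNF43 were silent in Jurkat too, none above 0.551 CPM in any pure library, and ZNF676 was at 0 in all 14 libraries.

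Of 245 adjacent pairs, 37 had both genes higher in Jurkat, 3 had both higher in HEK and 7 had opposite calls relative to all gene counts, whereas with spike-in totals 0, 131 and 7 did. Relative to all gene counts the longest run of calls was the 6 genes from ZNF724 to ZNF254, all higher in Jurkat, which summed to 28.5 and 41.6 CPM in HEK and 145.8 and 163.4 in Jurkat. All 6 had mostly fractional counts. A further 16 genes of chromosome 19 with ZFP, ZSCAN, ZIM, ZIK1 or PEG3 symbols were taken by symbol alone, whether or not they are related. Of these, 8 were silent in both lines and 8 were tested. Relative to all gene counts, 4 were higher in Jurkat, ZFP36 among them, and 1 in HEK, beside 19% and 24.2% of all genes tested.

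Stretches of neighbors were chosen after their values were seen, and are a description. From ZNF491 to ZNF563 (14 genes in 536 kb), 8 genes were silent in HEK and 1 in Jurkat, and in 13 of the 14 both HEK libraries lay below both Jurkat libraries. Of the 9 tested, 8 were higher in Jurkat. Beside this, 27.6% of all genes tested had both HEK libraries below both Jurkat libraries, and 19% were called higher in Jurkat. The 14 genes summed to 29.4 and 23.8 CPM in HEK and 124.97 and 120.5 in Jurkat. Expressed and silent genes alternated in HEK: ZNF440 (11.3 and 8.23 CPM) lay between the silent ZNF491 and ZNF439, and ZNF136 and ZNF44, at 4.40 to 5.82 CPM, lay beside the silent ZNF563. The exception was ZNF625, which was low in both lines.

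From ZNF577 to ZNF836 (10 genes in 367 kb) the pattern was the opposite. Here 6 genes were silent in Jurkat and none in HEK, and in 8 of the 10 both Jurkat libraries lay below both HEK libraries. Of the 9 tested, 4 were higher in HEK (ZNF577, ZNF649, ZNF432 and ZNF841) and 1 in Jurkat, ZNF616. Among all genes tested, 47.2% had both Jurkat libraries below both HEK libraries, while 24.2% were called higher in HEK and 19% in Jurkat. The stretch summed to 49.3 and 35.3 CPM in HEK and 14.1 and 11.8 in Jurkat. A smaller case was ZNF404 to ZNF284 (8 genes in 217 kb), with 5 silent in Jurkat and 4 of them at 0 in both Jurkat libraries, but ZNF45 (6.71 and 1.93 CPM in Jurkat), ZNF230 (2.24 and 1.63) and ZNF222 (0.448 and 0.793) interrupted it.

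Less than 1 Mb beyond ZNF836, in 14 of the 19 genes from ZNF83 to ZNF331 both HEK libraries lay below both Jurkat libraries. The 19 summed to 47.2 and 40.0 CPM in HEK and 217.7 and 228.5 in Jurkat, and 9 of 13 tested were higher in Jurkat, none in HEK. Among all genes tested, 27.6% had both HEK libraries below both Jurkat libraries, while 19% were called higher in Jurkat and 24.2% in HEK. ZNF160 stood at 4.76 and 3.85 CPM in HEK and 47.5 and 68.7 in Jurkat, a log2 difference of -3.99 ± 0.31 (adjusted p = 0.00106). ZNF83 stood at 2.02 and 2.55 CPM in HEK and 30.6 and 38.6 in Jurkat. In both genes the Jurkat values lay far above the HEK values. Of the 19 genes, 14 had mostly fractional counts.

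**Figure D4:**
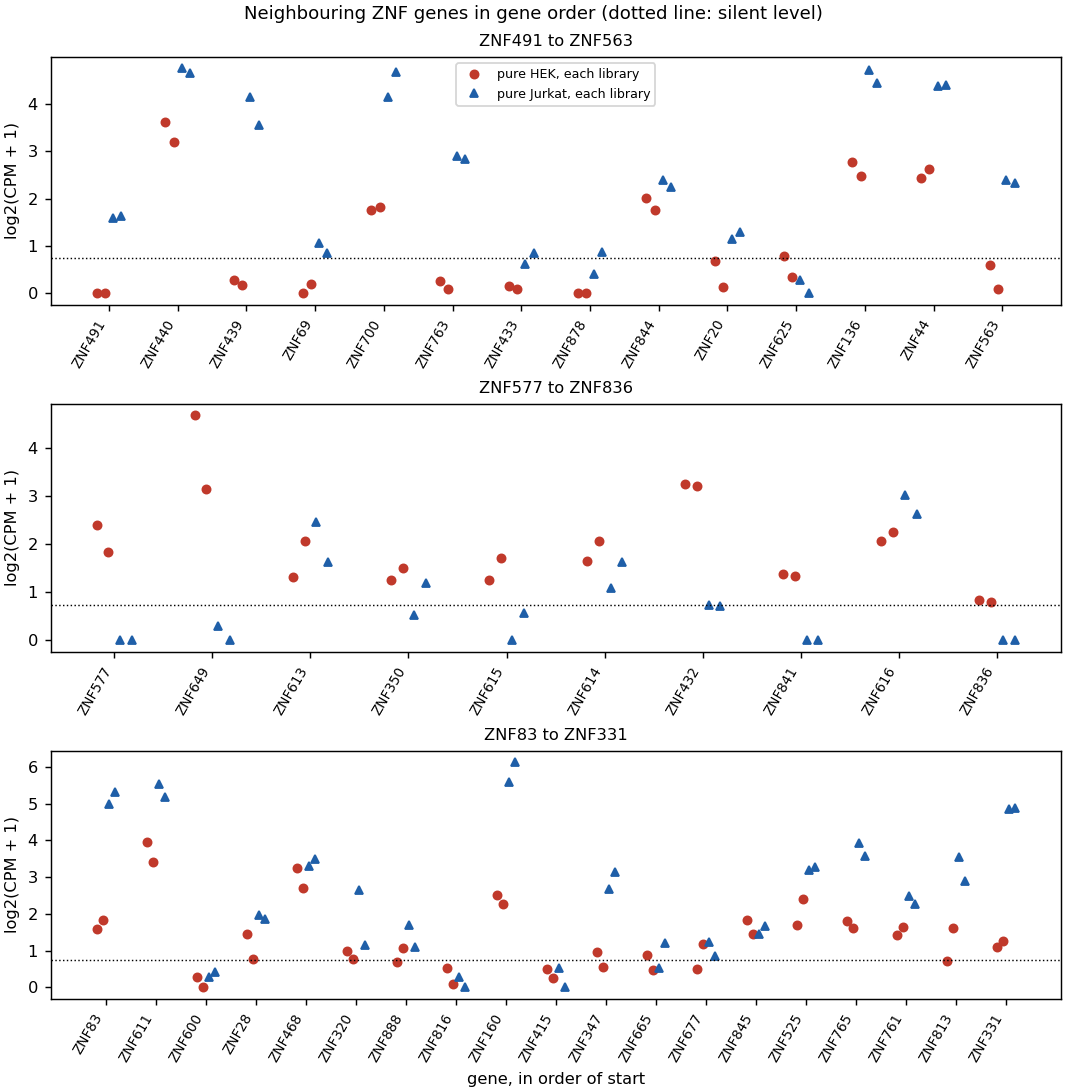
Log2(CPM + 1) of neighboring ZNF genes in order of start, with each pure HEK library as a red circle, each pure Jurkat library as a blue triangle and the silent level as a dotted line. From ZNF491 to ZNF563, 8 genes lie under the line in HEK with expressed genes between them, from ZNF577 to ZNF836, 6 lie under it in Jurkat, and from ZNF83 to ZNF331 the Jurkat points lie mostly above the HEK points.

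By clusters of genes less than 1 Mb apart, 16 in all, the balance differed along the chromosome. The cluster from ZNF653 to ZNF791 held 25 genes, with 12 of 18 tested higher in Jurkat and none in HEK (median log2 difference -1.82). The pericentromeric cluster from ZNF101 to ZNF254 held 37 genes, with 16 of 20 tested higher in Jurkat and 2 in HEK (median -1.93). It summed to 266.2 and 288.4 CPM in HEK and 815.1 and 796.5 in Jurkat. The cluster from ZNF575 to ZNF296 (24 genes) had 5 of 15 tested higher in HEK and 2 in Jurkat with a median of -0.08, and summed to 119.6 and 118.7 CPM in HEK and 104.5 and 91.5 in Jurkat. The cluster from ZNF565 to ZNF573 (26 genes) had 7 of 25 tested higher in Jurkat, 1 in HEK and a median of -0.29. All these balances are relative to all gene counts, where 19% of all genes tested were higher in Jurkat and 24.2% in HEK. With spike-in totals 168 of the 190 tested genes were higher in HEK, beside 92.5% of all genes tested.

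The 10 mixed libraries include none of the pure libraries, so the slope of each gene on the HEK percentage was fitted on separate libraries. The same lines were mixed, so a gene higher in Jurkat should fall by design. Agreement in direction with the pure libraries is therefore no separate result on the lines. Relative to all gene counts, 21 of 202 ZNF genes tested fell with the HEK percentage and 1 rose, beside 5.08% falling and 0.528% rising over all 17242 genes tested. With spike-in totals 129 rose and 0 fell, beside 78.2% rising and 1.23% falling over all genes, whose median slope was 3.06. At an unadjusted p under 0.05 by edgeR, 0 fell too. Gene counts per spike-in count differed between libraries of the same mixture, at 46.6 and 123.2 with 80% HEK cells and 17.4 and 28.0 with 20%. All 21 that fell were higher in pure Jurkat. Of the 78 genes called higher in pure Jurkat and tested here, 71 had a negative slope, and of the 17 called higher in HEK, 16 had a positive one, whereas over all genes the shares were 88.6% and 86.0%. With the file-name group added as a term, 4 of 206 ZNF genes tested fell, beside 2.7% of all genes tested. These were ZNF43, ZNF91, ZNF160 and ZNF331, all among the 21. The group largely follows the HEK percentage in the mixtures. Both libraries with 80% HEK cells are in the group of 6, and those with 40% and 20% are in the group of 8. Without library 1 or 2 of 20% HEK cells, 9 of 203 or 10 of 206 fell, beside 3.15% and 3.55% of all genes tested. Of the 21 only 4 had mostly whole counts, out of 76 such ZNF genes tested. Over all genes with mostly whole counts, 553 of 8993 fell. Without library 1 of 40% HEK cells 3 genes rose.

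Of the 21 falling genes, 8 were in the cluster that ends with ZNF331, where 29 were tested, 5 in the cluster of ZNF491, where 18 were tested, and 5 in that of ZNF43, where 21 were tested. ZNF43 rose from 1.84 and 1.41 CPM with 80% HEK cells to 3.30 and 3.55 with 60%, 3.14 and 4.88 with 50%, 5.73 and 7.19 with 40% and 10.3 and 9.72 with 20%. Its log2 slope per unit of HEK fraction was -4.48 ± 0.42 (adjusted p = 2.4e-05). ZNF331 went from 2.24 and 2.45 CPM with 80% HEK cells to 7.11 and 12.59 with 20%, with a slope of -3.65 ± 0.44 (adjusted p = 0.00017). ZNF91 went from 2.51 and 2.23 CPM to 11.3 and 11.7, with a slope of -3.91 ± 0.35 (adjusted p = 1.9e-05). For these 3 genes the libraries with 20% HEK cells lay above all those with 80%, 60% and 50%, and all mixtures lay below the pure Jurkat libraries.

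ZNF615 was the gene that rose with the HEK percentage. It stood at 9.01 and 8.19 CPM with 80% HEK cells, 3.34 to 4.63 with 60%, 50% and 40%, and 1.36 and 1.54 with 20%. Its slope was 3.52 ± 0.70 (adjusted p = 0.00801). In pure HEK cells it stood at only 1.38 and 2.29 CPM, below both libraries with 80%, and it was at 0 and 0.484 in Jurkat, a difference that did not pass (adjusted p = 0.0781). It had fractional counts in 12 of 14 libraries. Without library 1 of 80% HEK cells no ZNF gene rose, with 6 at an unadjusted p under 0.05 by edgeR's quasi-likelihood test.

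In the mixtures, genes of a single line showed how far each line's ZNF messages were diluted. The 8 genes expressed only in Jurkat, summed, kept 25.9% and 24.8% of their pure Jurkat CPM in libraries with 20% HEK cells, although 80% of the cells were Jurkat. The 316 other protein-coding genes expressed only in Jurkat kept 38.5% and 37.6%. With 50% HEK cells the ZNF genes kept 9.46% and 12.2% and the others 13.3% and 14.2%, and with 80% HEK cells 5.02% and 4.60% beside 4.05% and 4.23%. In HEK cells alone the ZNF genes already stood at 2.14% and 1.46% of the pure Jurkat level, beside 0.36% in both libraries for the others. The values with 80% HEK cells therefore include counts that are not Jurkat message. The mean of the ZNF genes with 20% HEK cells, 25.4%, was 15.6% on the TPM scale. ZNF43 weighed heavily in the sum, and the other 7 genes kept 31.1% and 30.2% with 20% HEK cells. The pure Jurkat reference varied, at 116% and 84.0% of its mean, and taking either pure library alone moved the mean of the 20% libraries between 21.9% and 30.2%.

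The 10 genes expressed only in HEK kept 53.8% and 52.0% of their pure HEK CPM in libraries with 20% HEK cells, beside 59.98% and 61.1% for 896 other genes of that kind. With 80% HEK cells they kept 87.3% and 86.8%, beside 98.9% and 101.5%. Single genes varied. ZNF536 kept 82.7% and 79.7% with 20% HEK cells, ZNF585A kept 42.3% and 38.1%, and ZNF649 kept 30.6% and 21.3%. ZNF649 was already at 40.6% and 33.2% with 80% HEK cells. The measures share their pure libraries with the rule that chose the genes, and are a description.

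**Figure D5:**
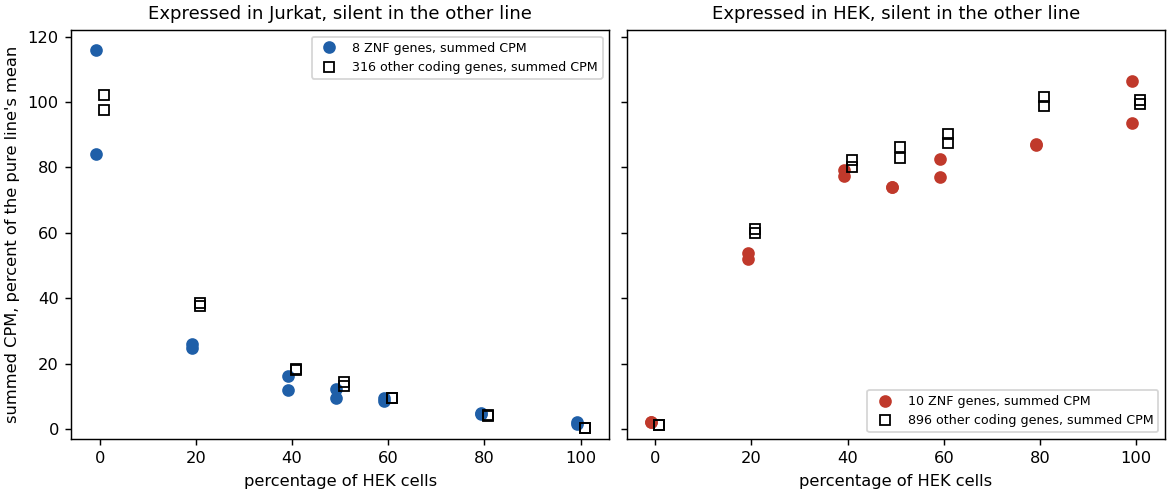
Summed CPM in each of the 14 libraries as a percent of the mean of the pure line, against the percentage of HEK cells, for ZNF genes (filled circles) and other protein-coding genes (open squares) expressed only in Jurkat (left) or only in HEK (right). The 8 Jurkat genes drop to 25.9% and 24.8% when 20% of the cells are HEK, while the 10 HEK genes are still above 50% there.

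A list of 36 chromatin genes was examined too. It holds TRIM28, SETDB1 and other genes of silencing, and also the KDM4 demethylases and TET dioxygenases, so that not all of them act with KRAB zinc finger proteins. All were expressed in both lines. Of these 36 genes, all tested, 5 were higher in HEK (13.9%, beside 24.2% of all genes tested), 9 higher in Jurkat (25%, beside 19%) and 22 did not pass relative to all gene counts. Their median log2 difference was -0.54, beside 0.07 for all genes. With spike-in totals 34 were higher in HEK and 0 in Jurkat, beside 92.5% and 3.22% of all genes tested. At an unadjusted p under 0.05 by edgeR, 0 were higher in Jurkat too. Summed, the 36 genes stood at 6163 and 5844 CPM in HEK and 8750 and 9304 in Jurkat. TRIM28, the corepressor that KRAB domains recruit, stood at 135.3 and 122.8 CPM in HEK and 51.7 and 50.5 in Jurkat, a log2 difference of 1.11 ± 0.20 (adjusted p = 0.0101). SETDB1, its H3K9 methyltransferase, differed by 0.75 ± 0.21 (adjusted p = 0.0398) from 20.9 and 22.9 CPM in HEK to 11.7 and 10.7 in Jurkat. MORC2, DNMT3B and TRIM24 were also higher in HEK.

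On the other side, RESF1, a cofactor of SETDB1 in silencing retroelements, stood at 18.5 and 32.9 CPM in HEK and 251.3 and 420.7 in Jurkat, a log2 difference of -3.93 ± 0.44 (adjusted p = 0.00281). The DNA methyltransferase DNMT3A stood at 16.7 and 18.5 CPM in HEK and 66.2 and 117.7 in Jurkat (-2.61 ± 0.35, adjusted p = 0.0045). MPHOSPH8, a member of the HUSH complex, the heterochromatin protein gene CBX5, the chromatin remodelers CHD3 and CHD4, the histone chaperone DAXX, the demethylase KDM4C and the dioxygenase TET3 were higher in Jurkat as well. In the mixtures EHMT2 and CHD3 fell with the HEK percentage, or 5.56% beside 5.08% of all genes tested, and EHMT2 did not pass between the pure lines (-0.21, adjusted p = 0.469). Beside 0.528% of all genes, 0 of the 36 rose (1 at an unadjusted p under 0.05 by edgeR, and 0 adjusted by DESeq2). These directions are relative to all gene counts. With spike-in totals 34 of the 36 were higher in pure HEK and 27 rose with the HEK percentage, beside 92.5% and 78.2% of all genes tested.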

How the data were processed

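RNA was captured with oligo-dT beads, barcoded during cDNA synthesis, pooled by Actb qPCR values and sequenced in pairs, of which the second read served to assign reads to libraries. Per the labels and methods, the authors aligned reads with STAR 2.6.1b to GRCh38 with ERCC sequences and counted them with RSEM 1.3.1, and the annotation release is not given in the sources used here. The deposited files hold expected counts, which the authors did not normalize, and TPM, a scale per length on which genes and spike-ins were normalized jointly. A further table of the series was not used.

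Symbols and positions came from GENCODE release 44, in which 57754 of the 58440 identifiers were found. CPM and rescaled TPM left out spike-ins. Expected counts were rounded and tested with edgeR 4.0.16 (TMM, filterByExpr, glmQLFit and glmQLFTest) over all genes, with Benjamini-Hochberg adjustment at 0.05, between the 4 pure libraries and as a slope over the 10 mixed ones. DESeq2 1.42.0, the tool of the study, and other normalizations, filters, samples and adjustments were alternatives. The tests were checked on simulated counts. A count was whole within 0.005. The scripts ran in R 4.3.3 and in Python 3.11.15 with SciPy 1.17.1, matplotlib 3.10.9 and NumPy 2.4.6. Depth ranged from 4468822 to 28303668 gene counts, and intervals and floors of 3 counts cover counting error only.

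Genes were named by a rule: the 8 largest differences in each direction past the threshold without overlap between lines, the 3 highest by TPM in each line, the 3 expressed in both lines with the smallest difference, and members of blocks. Genes of a single line, of stretches and of the mixtures were named as well, after their values were seen. The genes, lists and rules were chosen with earlier results of these data known.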

Additional observations from a re-analysis of the deposited data

How the results depend on the processing

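Between the pure lines, the counts of genes higher in HEK and higher in Jurkat were 17 and 79. They were 26 and 88 in a fit of all 14 libraries, 28 and 81 without the low-count filter, 6 and 18 with mostly fractional genes left out, 168 and 6 with spike-in totals, and 8 to 14 and 37 to 64 with each library left out. With Bonferroni adjustment they were 0 and 0 by edgeR, against 22 and 93 at an unadjusted p under 0.05 and 5 and 30 by DESeq2 with the same adjustment. DESeq2, RLE size factors and library totals gave 13 to 22 and 68 to 81. Over all genes tested, 92.5% were higher in HEK and 3.22% higher in Jurkat with spike-in totals. Calls over all genes fell too with each library left out.

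Over the mixtures, 1 gene rose and 21 fell. These were 4 and 77 over all 14 libraries, 129 and 0 with spike-in totals, and 1 and 4 with the file-name group as a term. Over all genes tested, 78.2% rose and 1.23% fell with spike-in totals, and 0.174% and 2.7% did with the group term. The ZNF counts were 0 and 4 with mostly fractional genes left out, and 0 to 3 and 9 to 23 with each library left out. Blocks silent in Jurkat numbered 0, but 1 with 1 CPM as the expressed level, 2 with runs of 2 genes, 4 with both changes and 1 when 1 expressed gene sufficed, which gave 2 blocks silent in HEK. The Jurkat over HEK ratio of summed levels was 1.78, 1.67 by TPM, 1.28 without mostly fractional genes and 0.176 per spike-in count. The Jurkat-only genes kept 25.4% with 20% HEK cells, 15.6% by TPM and 21.9% to 30.2% with each pure library left out, and the HEK-only genes 52.9%, 41.2% and 49.7% to 56.5%. Blocks alone could not be followed in the mixtures, since there were 0.

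Among the log2 differences of named genes that the alternatives recomputed, those of ZNF714 (2.04), ZNF724 (1.51), ZNF30 (3.59) and ZNF507 (3.62) turned from higher in Jurkat to higher in HEK past the threshold with spike-in totals, the last 2 from -0.04 and -0.05, which had not passed. The differences of ZNF30, ZNF507 and ZNF57 also changed sign without passing under 4, 3 and 2 alternatives. Of all recomputed values, 206 kept their side of the threshold, 13 lost it and 1, ZNF57 with spike-in totals, passed it in the same direction. The causes were not tested. No paired analysis was possible because the labels number the libraries without pairing them across groups. The 4468822 counts of the shallowest Jurkat library set the level under which silence could not be told from low expression.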
